A study of Homo sapiens with 6 samples.

Results

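The unfolded protein response and the integrated stress response were followed through 32 genes in BT474 cells, an established breast cancer line that carries estrogen receptor and amplified HER2. The genes were chosen by name, as every probe whose gene name in the array files was one of the 32, and were described in 3 arms: 17 endoplasmic reticulum (ER) chaperones and degradation genes, 5 sensors and transcription factors, and 10 targets of ATF4. They were 32 of 24619 gene names that could be tested, on 40 probes, of which 39 passed the filter on dim probes. All cells were cultured in serum-containing medium, with no ER stress agent named in the labels. They had been stably transfected with pcDNA3.1 plasmids. Control cells, called MOCK in the labels, carried the empty plasmid. BT474-Var1 cells carried variant 1 of NR2F1-AS1, a long non-coding RNA, and BT474-Var4 cells carried its shorter variant 4. Per the study, the transfected cells were selected with antibiotic and then kept without it. The plasmid of variant 4 carried eGFP, and variant 1 was in pcDNA3.1/Hygro(+). Which of the empty plasmids the Control arrays carried was not given in the sources used here. Per the study, too, cells with either variant dwindled to a few, and colonies that grew out later differed in shape from Control. Backbone and outgrowth cannot be told apart from group, and their part in the results was not tested. Each group held 2 arrays, A and B, and no source says that they came from separate cultures, so every p-value measures the spread between these arrays, which may be technical.

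The unfolded protein response is how a cell answers misfolded protein in the ER: the membrane sensors IRE1 (gene ERN1), PERK (EIF2AK3) and ATF6 signal to the nucleus. ATF6 and spliced XBP1 switch on chaperones, disulfide isomerases and the degradation machinery, many of them through the ER stress element in the promoter. PERK phosphorylates the translation factor eIF2 alpha, as do the other kinases of the integrated stress response, and ATF4, translated under that block, switches on amino acid synthesis genes and stress outputs such as CHOP (DDIT3). Secretory epithelial cells keep a basal level of these chaperones, and ATF4 is controlled largely at translation, which mRNA arrays do not read.

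Of the 32 genes, 30 had promoter windows in the RefSeq table (build GRCh38.p14), each running from 250 bases before to 50 bases after a start site. PDIA3 and PSPH had none. The ER stress element, written CCAAT, 9 bases of any letter and CCACG, was found on either strand in 7 of these 30 genes, against 25 of all 27305 genes with a window (0.0916%). Of the 7, 6 were chaperone arm genes (HSPA5, HSP90B1, PDIA6, CALR, CANX and CRELD2) and the other was XBP1. On the brightest tested probe of each gene, HSPA5, which encodes the ER chaperone BiP, had the largest difference of all 32 between the variants. The 150 bases before its start are therefore shown. They lie on the minus strand at chr9:125241344-125241493, with the ER stress element in capitals.
HSPA5: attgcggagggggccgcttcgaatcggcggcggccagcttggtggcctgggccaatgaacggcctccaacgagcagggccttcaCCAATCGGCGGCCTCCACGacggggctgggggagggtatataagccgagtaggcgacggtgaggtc

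The elements of the other genes are given with 20 bases on each side, since the mRNA of these genes moved in different directions. Capitals mark the element, read 5′ to 3′ along the gene, and where it lay on the opposite strand the capitals show its reverse complement. HSP90B1 held a pair, one on each strand, at chr12:103930196-103930254 and chr12:103930301-103930359 (plus strand of the genome). The windows of PDIA6 (chr2:10812833-10812891) and XBP1 (chr22:28800583-28800641) are on the minus strand, and those of CALR (chr19:12938364-12938422), CANX (chr5:179698758-179698816) and CRELD2 (chr22:49918534-49918592) on the plus strand. A further CANX element reached past a start site and is not shown.
HSP90B1, first: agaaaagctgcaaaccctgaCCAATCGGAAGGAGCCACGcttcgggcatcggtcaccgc
HSP90B1, second: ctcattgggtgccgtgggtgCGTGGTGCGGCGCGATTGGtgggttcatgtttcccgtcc
PDIA6: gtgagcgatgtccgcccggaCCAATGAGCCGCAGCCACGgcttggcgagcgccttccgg
CALR: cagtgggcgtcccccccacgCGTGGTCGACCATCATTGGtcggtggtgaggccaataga
CANX: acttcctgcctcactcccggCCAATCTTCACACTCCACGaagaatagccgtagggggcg
CRELD2: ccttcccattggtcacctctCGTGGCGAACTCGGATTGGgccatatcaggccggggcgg
XBP1: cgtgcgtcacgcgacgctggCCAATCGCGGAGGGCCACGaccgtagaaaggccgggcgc

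The composite site read by ATF4 with C/EBP factors, TGATGNAAN on either strand, was found in CHAC1 and ASNS among the 9 ATF4 targets with a window and in HERPUD1 of the chaperone arm, against 4.45% of all genes. These windows are shown because CHAC1 and ASNS, both ATF4 targets, were called in different comparisons. They lie at chr15:40953241-40953289 for CHAC1 and chr16:56931945-56931993 for HERPUD1 (plus strand), both with the site on the opposite strand, and at chr7:97872448-97872496 for ASNS (minus strand).
CHAC1: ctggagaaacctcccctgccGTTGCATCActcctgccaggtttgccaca
HERPUD1: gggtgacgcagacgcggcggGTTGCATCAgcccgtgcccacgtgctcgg
ASNS: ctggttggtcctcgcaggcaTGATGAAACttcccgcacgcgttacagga

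A CCAAT box was found in all 16 chaperone arm genes with a window, 3 of 5 sensors and factors and 6 of 9 ATF4 targets, against 39.7% of all genes. The shorter CCACG, the end of that element, was found in 15 of 16, 3 of 5 and 3 of 9, against 42.1%, and the UPR element in HYOU1 alone of the 30, against 0.927%. The ER stress element contains both the CCAAT box and CCACG, so these counts overlap. They describe letters in a window and say nothing of which factors were bound in these cells.

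**Figure D1:**
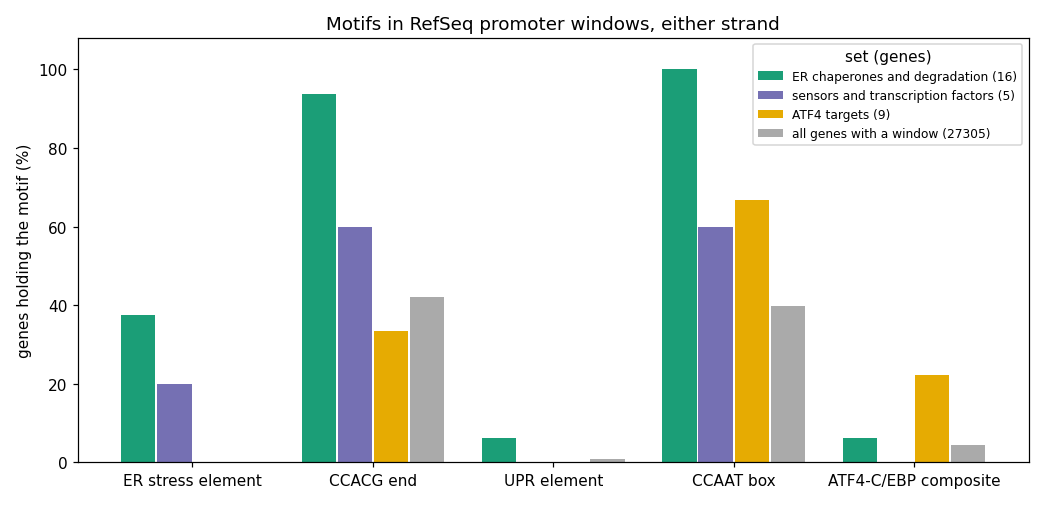
Share of genes (%, vertical axis) whose RefSeq promoter window holds each motif (horizontal axis) on either strand, by arm and for all genes with a window. The ER stress element bar of the chaperone arm stands at 37.5%, while that of all genes, at 0.0916%, is too low to see.

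The arrays were 1-colour Agilent arrays on 1 slide, scanned on 1 day, and intensities are given as log2 relative to the 75th percentile of each array, so that 0 is that percentile and 1 unit is a doubling. Between 47.6% and 57.5% of probes were well above background on an array, no spot was saturated, and replicate arrays correlated with r from 0.993 to 0.996 across probes. The BT474-Var1 arrays lay in a row of the slide apart from the other 4 arrays, and the Control arrays in columns apart from the variants, so position on the slide and group cannot be told apart. The transfected gene followed the labels: of the 4 probes of NR2F1-AS1, 1 read 3.01 and 3.02 in BT474-Var4, -1.69 and -1.52 in BT474-Var1, where it was called higher too (adjusted p = 0.0134), and -5.76 and -4.16 in Control, while another read -0.42 and -0.51 in BT474-Var1 and was well above background on those 2 arrays alone. All 9 markers of BT474 cells (ERBB2, GRB7, ESR1, GATA3, keratins, EPCAM and CDH1) were well above background on all 6 arrays, with a summed level on the log2 scale of 11.03 to 11.05 in Control, 11.38 to 11.40 in BT474-Var1 and up to 11.02 in BT474-Var4. The sum is carried by the brightest of them, and single markers went both ways: KRT19, KRT8, GRB7 and ERBB2 were called higher in BT474-Var1 (0.62, 0.32, 0.27 and 0.22), EPCAM and CDH1 were called lower there (-0.66 and -0.47), and ESR1 was called lower in BT474-Var4 (-0.47). Of 11 markers of other cell types, 5 to 7 were well above background on an array. VIM and VWF were called lower in BT474-Var1 (-1.03 and -0.87), and COL1A1 was called higher in both BT474-Var1 (0.34) and BT474-Var4 (1.03). PTPRC, CD3E and CD14 were called in no comparison. COL1A2, COL3A1, FN1, ACTA2 and PECAM1 did not pass the filter on dim probes. The summed level of the markers of other cell types on the log2 scale ran from 4.49 to 4.54 in Control, 3.77 to 3.83 in BT474-Var1 and 4.76 to 4.89 in BT474-Var4, and the part of either marker list in the results below was not tested. In bulk RNA, fewer cells of a kind and less RNA per cell cannot be told apart.

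All 32 genes were well above background on all 6 arrays. A gene was called changed at an adjusted p under 0.05 (limma, Benjamini-Hochberg over all 31858 tested probes), on its brightest tested probe. Statements below that a gene passed or did not pass the test refer to these settings unless another is named. In BT474-Var1 against Control, 15 of the 32 genes were lower and 2 were higher, beside 20.7% lower and 14.2% higher of all gene names tested. None of the 32 changed by 2-fold or more on that probe, beside 4.00% of all gene names. In BT474-Var4 against Control, 7 were higher and 3 lower, beside 10.2% higher and 14.6% lower of all, and 2 of them (HSPA5 and PPP1R15A) changed by at least 2-fold, beside 3.23%. Between the variants, BT474-Var4 was above BT474-Var1 in 23 genes and below it in XBP1 alone, beside 20.9% higher and 21.0% lower of all gene names. On the brightest tested probe, 4 genes differed by at least 2-fold (HSPA5, DNAJB11, CHAC1 and SESN2), beside 6.95%. With quantile normalization in place of the percentile, the split of the calls in BT474-Var1 was 14 lower and 5 higher and that in BT474-Var4 was 9 higher and 2 lower. Without the filter on dim probes the calls numbered 9 in BT474-Var1 and 4 in BT474-Var4, and with trended, robust variances 20 in BT474-Var4. Both comparisons with Control use the same Control arrays, and the comparison of the variants uses the arrays of both.

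**Figure D2:**
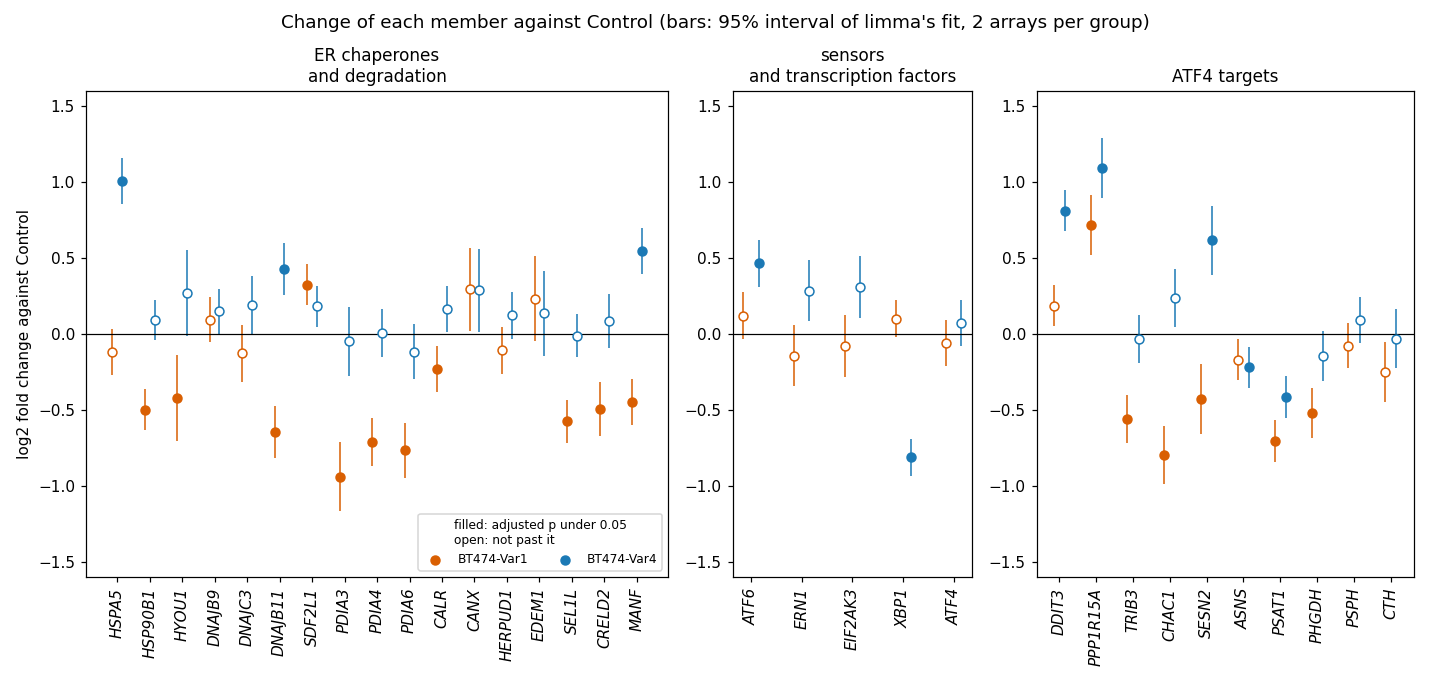
Log2 fold change against Control (vertical axis) of each of the 32 genes (horizontal axis) in BT474-Var1 (orange) and BT474-Var4 (blue), by arm; bars are 95% intervals of limma's fit and filled points passed an adjusted p of 0.05. Most filled orange points lie below 0, down to -0.94 for PDIA3, while the filled blue points reach from -0.81 for XBP1 to 1.09 for PPP1R15A.

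Of the 17 genes of the chaperone and degradation arm, 10 fell in BT474-Var1, SDF2L1 rose and 6 did not pass the test, and the median change was -0.42 on the log2 scale, beside -0.05 over all gene names. The shares were 58.8% lower and 5.88% higher, beside 20.7% and 14.2% of all gene names. In BT474-Var4, 3 of the 17 rose, none fell and 14 did not pass the test, with a median of 0.15 beside -0.08. The share higher was 17.6%, beside 10.2% higher and 14.6% lower of all gene names. BT474-Var4 stood above BT474-Var1 for 13 of the 17, with a median difference of 0.58 beside -0.03, and for DNAJB9, SDF2L1, CANX and EDEM1 that difference did not pass the test. Those 13 are 76.5% of the arm, beside 20.9% higher and 21.0% lower of all gene names. At an unadjusted p under 0.05, 8 of the 17 were higher and none lower in BT474-Var4, and by the one-way analysis of variance 4 were higher and none lower. The share of all gene names was not counted for either, so these counts cannot be set against a background.

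HSPA5 encodes BiP, the Hsp70 chaperone of the ER lumen that also holds the sensors inactive. Its log2 intensity (probe at chr9:127997149-127997208, hg19) was 2.98 and 2.96 in Control A and B, 2.86 and 2.84 in BT474-Var1 and 4.02 and 3.92 in BT474-Var4. The BT474-Var4 arrays lay about a doubling above all other arrays and no groups overlapped. HSPA5 rose 2.01-fold in BT474-Var4 (log2 1.01, 95% interval 0.85 to 1.16, adjusted p = 0.00333), and its change of -0.12 in BT474-Var1 did not pass the test (adjusted p = 0.179). HSP90B1, the Hsp90 of the ER (GRP94), fell by 0.50 in BT474-Var1 (adjusted p = 0.00558) and was at 0.09 in BT474-Var4 (adjusted p = 0.247). A second HSP90B1 probe fell by 1.01 in BT474-Var1, a 2.01-fold decrease. On that probe BT474-Var4 stood 1.22 above BT474-Var1 (adjusted p = 0.00127), a larger difference than the 1.12 of HSPA5. HYOU1, a large Hsp70-like partner of BiP, fell by 0.42 in BT474-Var1 (adjusted p = 0.042).

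Among the co-chaperones, DNAJB11 (ERdj3) delivers unfolded proteins to BiP. It read 3.45 and 3.47 in Control, 2.76 and 2.86 in BT474-Var1 and 3.84 and 3.93 in BT474-Var4 (chr3:186302264-186302323, hg19). The groups stood apart in the order BT474-Var1, Control, BT474-Var4. The decrease against Control was 1.56-fold in BT474-Var1 (adjusted p = 0.00557) and the increase 1.34-fold in BT474-Var4 (adjusted p = 0.0172), so that the variants differed 2.10-fold (adjusted p = 0.00165). SDF2L1, which works in a complex with DNAJB11, moved unlike it: it rose by 0.32 in BT474-Var1 (adjusted p = 0.0124) and its BT474-Var4 value of 0.18 did not pass the test. DNAJC3, a co-chaperone that also restrains eIF2 alpha kinases, differed only between the variants (0.32, adjusted p = 0.0263), and a second probe of it was well above background on no array. DNAJB9 (ERdj4), which returns IRE1 to its inactive state, passed in no comparison, with values from 0.05 to 0.15.

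The disulfide isomerases, which form and rearrange disulfide bonds in newly made proteins, all fell in BT474-Var1 on their lead probes, and on these none passed the test in BT474-Var4. PDIA3 (ERp57), the partner of the lectin chaperones, had log2 intensities of 5.75 and 5.55 in Control, 4.70 and 4.72 in BT474-Var1 and 5.64 and 5.56 in BT474-Var4. Only the BT474-Var1 arrays were low, and those of Control and BT474-Var4 overlapped. The decrease of PDIA3 was 1.92-fold (log2 -0.94, 95% interval -1.17 to -0.71, adjusted p = 0.00494). It was the largest of the 32 genes in BT474-Var1 on the brightest tested probes, while the second HSP90B1 probe fell by 1.01. PDIA6 fell by 0.77 (adjusted p = 0.00481) and PDIA4 by 0.71 (adjusted p = 0.00449). In BT474-Var4 the values of PDIA3, PDIA4 and PDIA6 were -0.05, 0.00 and -0.12. A second PDIA3 probe (chr15:44064742-44064801, hg19) gave -0.22 in BT474-Var1, which did not pass the test (adjusted p = 0.0566), and was higher in BT474-Var4 (0.26, adjusted p = 0.0474), so the size of the PDIA3 change depended on the probe.

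The lectin chaperones calreticulin and calnexin hold glycoproteins while they fold. CALR fell by 0.23 in BT474-Var1 (adjusted p = 0.0399), and BT474-Var4 stood 0.39 above BT474-Var1 (adjusted p = 0.00882). CANX passed in no comparison, and its probes disagreed in sign in BT474-Var1 (0.29 and -0.11). Of the degradation genes, SEL1L, the adaptor of the HRD1 ubiquitin ligase, fell by 0.58 in BT474-Var1 (adjusted p = 0.00505), and its other probes fell by 0.43 and 0.20. HERPUD1, a membrane component of the same machinery, differed only between the variants (0.23, adjusted p = 0.036), and EDEM1, which hands misfolded glycoproteins to it, passed in no comparison. The ER stress proteins CRELD2 and MANF, both partly secreted, fell in BT474-Var1 by 0.50 and 0.45 (adjusted p = 0.00935 and 0.00808). MANF also rose 1.46-fold in BT474-Var4 (adjusted p = 0.00814), with 5.12 on both Control arrays, 4.66 and 4.68 in BT474-Var1 and 5.71 and 5.62 in BT474-Var4. As with DNAJB11, the MANF groups stood apart with Control in the middle.

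**Figure D3:**
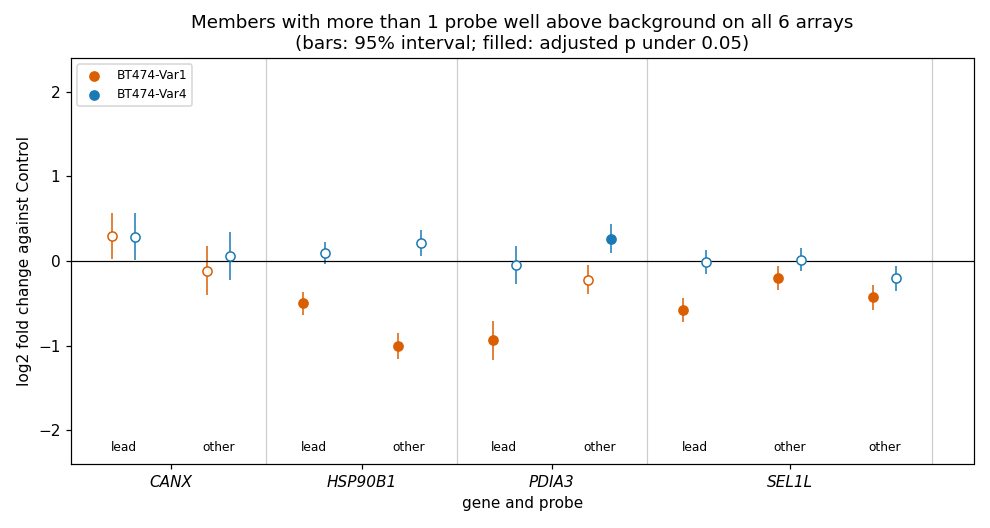
Log2 fold change against Control (vertical axis) of the lead and other probes of genes with more than 1 probe well above background on all arrays, in BT474-Var1 (orange) and BT474-Var4 (blue); bars are 95% intervals and filled points passed an adjusted p of 0.05. Every probe of HSP90B1 and SEL1L is filled and below 0 in BT474-Var1, with sizes from -0.20 to -1.01, and the CANX probes lie on both sides of 0.

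The genes that carry the ER stress element did not share 1 direction. In BT474-Var4, HSPA5 rose by 1.01, XBP1 fell by 0.81, and HSP90B1, PDIA6, CALR, CANX and CRELD2 did not pass the test, with values from -0.12 for PDIA6 to 0.29 for CANX. In BT474-Var1, HSP90B1, PDIA6, CALR and CRELD2 fell and HSPA5, XBP1 and CANX did not pass the test. HYOU1, with the UPR element, and DNAJB11 and SEL1L, with neither element, fell as well.

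The sensors and transcription factors gave no call in BT474-Var1 with the settings used for the counts above, and none at an unadjusted p under 0.05. XBP1 was called higher there by the one-way analysis of variance (adjusted p = 0.00708) and by limma with trended, robust variances (adjusted p = 0.0252), and ATF6 with quantile normalization (0.26, adjusted p = 0.0319). Their median there was -0.06, beside -0.05 over all gene names (0.0356 with quantile normalization and 0.0813 with the mean of a gene's probes, both of the opposite sign). In BT474-Var4, ATF6 rose, XBP1 fell and 3 did not pass the test, and the median was 0.29, beside -0.08 over all gene names. The shares were 20% higher and 20% lower of 5 genes, beside 10.2% and 14.6% of all gene names. Between the variants ATF6, ERN1 and EIF2AK3 were higher and XBP1 lower in BT474-Var4. These were 60% and 20% of the arm, beside 20.9% and 21.0% of all gene names. Cleavage of ATF6, splicing of XBP1 and phosphorylation of the kinases were not measured.

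XBP1 encodes the factor that becomes active once IRE1 splices its mRNA, and it is also abundant in luminal breast cells. Its log2 intensity was 8.52 and 8.51 in Control, 8.62 and 8.61 in BT474-Var1 and 7.70 on both BT474-Var4 arrays (chr22:29190733-29190792, hg19). The BT474-Var4 arrays were below all others, by far more than the difference between replicates. XBP1 fell 1.76-fold in BT474-Var4 (log2 -0.81, 95% interval -0.94 to -0.69, adjusted p = 0.00333) and did not pass the test in BT474-Var1 (0.10, adjusted p = 0.163).

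ATF6, the sensor that is cut to release a transcription factor, read 3.52 and 3.47 in Control, 3.64 and 3.59 in BT474-Var1 and 3.92 and 4.00 in BT474-Var4. It rose 1.38-fold in BT474-Var4 (adjusted p = 0.012), and no groups overlapped. ERN1, the IRE1 kinase and ribonuclease, read 0.98 and 0.88 in Control, 0.82 and 0.75 in BT474-Var1 and 1.29 and 1.14 in BT474-Var4. Its BT474-Var4 arrays were the highest, but the change of 0.29 did not pass the test (adjusted p = 0.0589), while the difference from BT474-Var1 did (0.43, adjusted p = 0.0145). A second ERN1 probe, well above background on 5 of 6 arrays, gave 0.16 for that difference (adjusted p = 0.678), and with the mean of the gene's probes the call was lost (0.29, adjusted p = 0.132). EIF2AK3, the PERK kinase, read -0.03 and -0.06 in Control, -0.21 and -0.03 in BT474-Var1 and 0.25 and 0.28 in BT474-Var4. Control and BT474-Var1 overlapped, the change of 0.31 in BT474-Var4 lay just outside the threshold (adjusted p = 0.0501), and the difference between the variants was 0.39 (adjusted p = 0.0187). That change in BT474-Var4 was called with trended, robust variances (adjusted p = 0.01) and with only the 2 groups compared (adjusted p = 0.0436). ATF4, the factor translated when eIF2 alpha is phosphorylated, passed in no comparison with the settings used for the counts above. It read 8.18 and 8.24 in Control, 8.19 and 8.11 in BT474-Var1 and 8.28 and 8.29 in BT474-Var4.

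**Figure D4:**
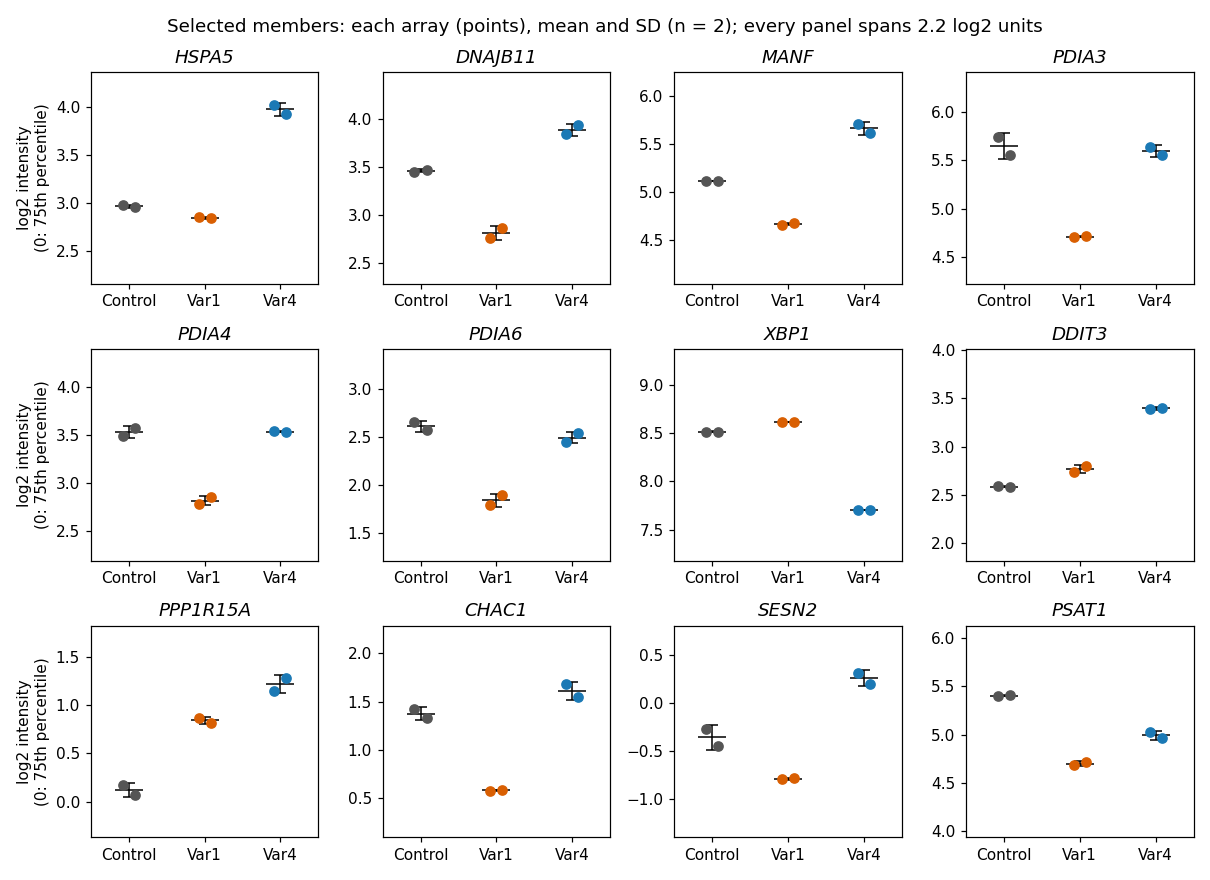
Log2 intensity relative to the 75th percentile (vertical axis) of 12 of the genes on each array (points) by group (horizontal axis), with the mean and SD of the 2 arrays; every panel spans 2.2 log2 units, so distances compare between panels. XBP1 is low in BT474-Var4 only, PDIA3 is low in BT474-Var1 only, and PPP1R15A is lowest in Control.

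The ATF4 targets moved in both directions. Of the 10 genes, 5 fell and PPP1R15A rose in BT474-Var1, with a median of -0.34 beside -0.05 over all gene names. The shares were 50% lower and 10% higher, beside 20.7% and 14.2% of all gene names. In BT474-Var4, 3 rose (DDIT3, PPP1R15A and SESN2), 2 fell (PSAT1 and ASNS) and 5 did not pass the test, with a median of 0.03 beside -0.08. These are 30% higher and 20% lower, beside 10.2% and 14.6% of all gene names, over 10 genes. Between the variants, 7 were higher in BT474-Var4 and none lower, beside 20.9% and 21.0% of all gene names, with a median difference of 0.38 beside -0.03. The counts were 9 and none at an unadjusted p under 0.05, and 7 and none by the one-way analysis of variance. For these last counts no share of all gene names was counted. BT474-Var4 stood above BT474-Var1 for each of the 5 stress outputs, and for PSAT1 and PHGDH among the 5 amino acid synthesis genes.

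PPP1R15A encodes GADD34, which brings a phosphatase to eIF2 alpha and so ends the translation block. It read 0.18 and 0.07 in Control, 0.87 and 0.82 in BT474-Var1 and 1.15 and 1.29 in BT474-Var4. Both variants lay above Control, BT474-Var4 the higher, and no groups overlapped. PPP1R15A rose 1.64-fold in BT474-Var1 (adjusted p = 0.00588) and 2.13-fold in BT474-Var4 (log2 1.09, 95% interval 0.89 to 1.29, adjusted p = 0.00418). DDIT3, which encodes the transcription factor CHOP, read 2.59 and 2.58 in Control, 2.74 and 2.80 in BT474-Var1 and 3.39 and 3.41 in BT474-Var4. It rose 1.76-fold in BT474-Var4 (adjusted p = 0.0038), and its 0.18 in BT474-Var1 lay just outside the threshold (adjusted p = 0.0518). With 6 of the 16 alternative settings DDIT3 was called higher in BT474-Var1, among them quantile normalization and the one-way analysis of variance.

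CHAC1 encodes an enzyme that breaks down glutathione. It read 1.42 and 1.33 in Control, 0.57 and 0.58 in BT474-Var1 and 1.68 and 1.55 in BT474-Var4 (chr15:41248631-41248690, hg19). Its BT474-Var1 arrays stood well below the rest. CHAC1 fell 1.74-fold in BT474-Var1 (adjusted p = 0.0048), its 0.24 in BT474-Var4 did not pass the test (adjusted p = 0.0767), and the variants differed 2.05-fold (adjusted p = 0.00198). TRIB3, a pseudokinase induced with CHOP, fell by 0.56 in BT474-Var1 (adjusted p = 0.00602) and was at -0.03 in BT474-Var4. SESN2, a stress-induced inhibitor of mTORC1, read -0.27 and -0.45 in Control, -0.79 and -0.78 in BT474-Var1 and 0.32 and 0.20 in BT474-Var4. The SESN2 groups stood apart, again with Control in the middle. It fell by 0.43 in BT474-Var1 (adjusted p = 0.0234) and rose by 0.62 in BT474-Var4 (adjusted p = 0.0146), a 2.06-fold difference between the variants (adjusted p = 0.00271).

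Of the serine synthesis enzymes PHGDH, PSAT1 and PSPH, in the order of the pathway, PSAT1 was lower in both variants. Its log2 intensity was 5.40 and 5.41 in Control, 4.68 and 4.72 in BT474-Var1 and 5.02 and 4.96 in BT474-Var4. The PSAT1 groups did not overlap, with decreases of 1.63-fold in BT474-Var1 (adjusted p = 0.00391) and 1.33-fold in BT474-Var4 (adjusted p = 0.0121). PHGDH fell by 0.52 in BT474-Var1 (adjusted p = 0.00737) and was at -0.14 in BT474-Var4 (adjusted p = 0.164), and PSPH passed in no comparison. ASNS, which makes asparagine and carries the composite site shown above, fell by 0.22 in BT474-Var4 (adjusted p = 0.0434) and was at -0.17 in BT474-Var1 (adjusted p = 0.0633). CTH, which makes cysteine, passed in no comparison, with -0.25 in BT474-Var1 and -0.03 in BT474-Var4.

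**Figure D5:**
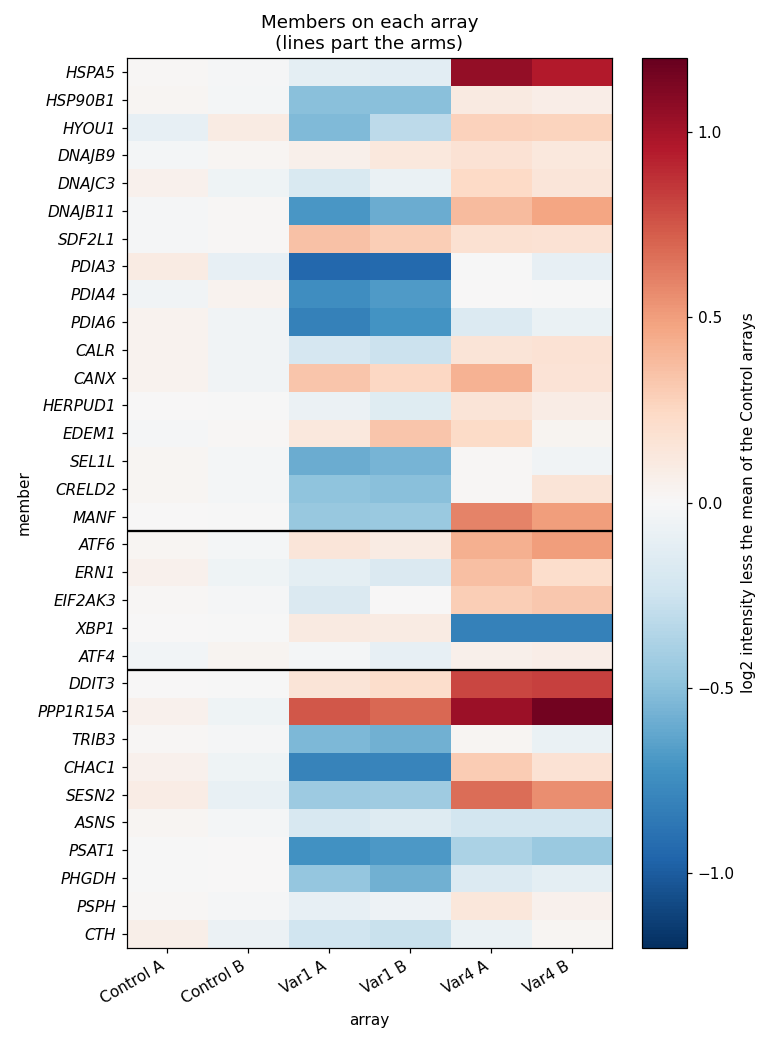
Log2 intensity of each of the 32 genes (rows, by arm) on each of the 6 arrays (columns), less the mean of the Control arrays; red is above and blue below Control. The BT474-Var1 columns are mostly blue in the upper and lower arms, the BT474-Var4 columns are red for HSPA5, MANF, DDIT3, PPP1R15A and SESN2, and the XBP1 row is blue in BT474-Var4 alone.

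Set side by side, and with the Control arrays shared, DNAJB11, MANF and SESN2 had changes of -0.65, -0.45 and -0.43 in BT474-Var1 and 0.43, 0.55 and 0.62 in BT474-Var4, all called. With the settings used for the counts above, no call was made in any comparison for DNAJB9, CANX, EDEM1, ATF4, PSPH and CTH. Each of these but EDEM1 was called in some comparison under an alternative setting.

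With 2 arrays a group, leaving out 1 leaves its group with 1 array and lowers the precision of the fit. A call lost this way need not rest on the array left out. MANF read 5.12 on both Control arrays, yet its BT474-Var4 call was lost without either of them. In BT474-Var1, 11 of the 17 calls were kept whichever array was left out, and CALR, CRELD2, HYOU1, MANF, SDF2L1 and SESN2 were lost without at least 1 of them. Leaving out Control A lost all 6 of these (adjusted p, here and for the other arrays, 0.0521 to 0.164), Control B lost CALR, CRELD2, HYOU1 and SDF2L1 (0.0507 to 0.152), BT474-Var1 A lost CALR, HYOU1, SDF2L1 and SESN2 (0.0585 to 0.134) and BT474-Var1 B lost CALR, HYOU1 and SESN2 (0.0565 to 0.142). CALR and HYOU1 also lost their calls with only the 2 groups compared (adjusted p = 0.0725 and 0.0788). Leaving out either BT474-Var4 array gives that same fit, so it does not show that the calls rest on that array. In BT474-Var4, the calls of HSPA5, XBP1, DDIT3 and PPP1R15A were kept whichever array was left out. The calls of ASNS, ATF6, DNAJB11, MANF, PSAT1 and SESN2 were lost without Control B, and all of these but SESN2 without Control A. All but MANF were lost without BT474-Var4 B, and ASNS, DNAJB11 and SESN2 without BT474-Var4 A. ASNS also lost its call with only the 2 groups compared (adjusted p = 0.0764), the same fit as without either BT474-Var1 array. The counts of calls without 1 array ran from 11 to 15 in BT474-Var1 and from 4 to 10 in BT474-Var4.

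Between the variants, 16 of the 24 calls were kept whichever array was left out. Without BT474-Var1 A, DNAJC3, EIF2AK3, ERN1, HERPUD1, PPP1R15A and PSAT1 were lost (adjusted p 0.0514 to 0.101), and without BT474-Var1 B the same genes with ATF6 in place of EIF2AK3 (0.0534 to 0.13). Without BT474-Var4 A, DNAJC3, EIF2AK3, ERN1, HERPUD1 and PSAT1 were lost (0.053 to 0.128), and without BT474-Var4 B, ATF6, DNAJC3, EIF2AK3, HERPUD1, PHGDH and PPP1R15A (0.0573 to 0.0792). HERPUD1 also lost its call with only the 2 groups compared (adjusted p = 0.0769), the same fit as without either Control array.

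The wider pathways were read from further lists, of which 44 genes of ER folding, translocation and degradation and 42 genes of the integrated stress response could be tested. Of the 44 ER genes, 19 were lower and 3 higher in BT474-Var1, 6 lower and 2 higher in BT474-Var4, and for 16 BT474-Var4 was above and for 3 below BT474-Var1. The shares called lower and higher were 43.2% and 6.82% in BT474-Var1, beside 20.7% and 14.2% of all gene names, and 13.6% and 4.55% in BT474-Var4, beside 14.6% and 10.2%. Between the variants, 36.4% of the 44 were higher and 6.82% lower in BT474-Var4, beside 20.9% and 21.0% of all gene names. The medians of the 44 were -0.19, -0.06 and 0.15, beside -0.05, -0.08 and -0.03 over all gene names. None of the 44 was called at 2-fold or more. Of the 42 stress response genes, 19 were lower and 7 higher in BT474-Var1, 5 lower and 9 higher in BT474-Var4, and 25 higher and 6 lower between the variants, with medians of -0.27, 0.09 and 0.33. The shares called lower and higher were 45.2% and 16.7% in BT474-Var1 and 11.9% and 21.4% in BT474-Var4. The share higher in BT474-Var1 and the share lower in BT474-Var4 were thus near those of all gene names. Between the variants, 59.5% of the 42 were higher and 14.3% lower in BT474-Var4, beside the same 20.9% and 21.0%.

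The genes of these lists called at 2-fold or more were all in the stress response list. DDIT4 (REDD1), an mTORC1 inhibitor, rose by 1.70 in BT474-Var1 (adjusted p = 0.00195), with 2.43 and 2.37 in Control, 4.11 on both BT474-Var1 arrays and 2.87 and 2.85 in BT474-Var4. VLDLR, a lipoprotein receptor, rose by 1.45 (adjusted p = 0.00304) and ATF3, a stress-induced transcription factor, by 1.31 (adjusted p = 0.00279) in BT474-Var1. GDF15, a secreted stress cytokine, rose by 1.17 in BT474-Var1 and 1.03 in BT474-Var4 (adjusted p = 0.00253 and 0.00293). SLC7A11, the cystine transporter, fell by 1.15 in BT474-Var1 (adjusted p = 0.00351). Between the variants, BT474-Var4 was lower for VLDLR (-1.39) and DDIT4 (-1.24) and higher for SLC7A11 (1.51), with adjusted p of 0.00155, 0.0012 and 0.00132.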

How the data were processed

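Total RNA of 6 BT474 samples was labelled with Cy3 and hybridised to 1-colour Agilent arrays with 62976 spots. Per the file headers, the authors' scanner files were made with Agilent Feature Extraction 11.5.1.1, which subtracts background and removes spatial trends, and the processed intensity used here is its linear output. The authors also deposited a table of log2 values, shifted to the 75th percentile. It differed from the values computed here by a median of at most 0.00716 and was used as an alternative. The array design number in the headers differs from the one in the methods.

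Spots called outliers (63 to 128 an array) were left out, spots of a probe were averaged, and log2 of the intensity less the array's 75th percentile was taken. The test took the 31858 of 58201 probes that both arrays of some group showed well above background, fitted with limma 3.58.1 in R 4.3.3 as group means over all 6 arrays with moderated variances (3 residual and 1.53 prior degrees of freedom) and Benjamini-Hochberg adjustment, in 3 comparisons. The test script was tested on simulated data. Where a gene had several probes, the brightest tested probe stood for it. Probe coordinates are those of the files (hg19), without exon annotation. The number of arrays, the spread between them and the prior variance drawn from all tested probes set the precision of a value. The methods' one-way analysis of variance was an alternative, as were other backgrounds, scalings, filters, variance moderation, samples in the fit, probe choice and a replicate block. Changes of array letter (B less A) correlated between groups with r from -0.0153 to 0.0451, so letters were not treated as pairs.

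The 32 genes, the arms and the other lists were chosen with earlier results of these data known. All 32 are named. Values on every array are given for genes called at 2-fold or more on their brightest tested probe. In the sensor arm, where none was, they are given for the 4 with the largest changes. The array values of PDIA3, MANF, ATF4, DDIT3, PSAT1 and DDIT4 were added after their values were seen. Genes of the other lists are named if called at 2-fold or more, at most 6 in a comparison. Figures were drawn with matplotlib 3.10.9.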

Additional observations from a re-analysis of the deposited data

Results flagged for a closer look

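The effects of the variants against the same Control arrays differed, by the test of BT474-Var4 against BT474-Var1, in 24 of the 32 genes (limma, adjusted p under 0.05), and each is listed here for that reason, as log2 differences. In the chaperone arm these were 1.12 for HSPA5, 1.07 for DNAJB11, 0.99 for MANF, 0.89 for PDIA3, 0.72 for PDIA4, 0.69 for HYOU1, 0.65 for PDIA6, 0.59 for HSP90B1, 0.58 for CRELD2, 0.56 for SEL1L, 0.39 for CALR, 0.32 for DNAJC3 and 0.23 for HERPUD1. Among sensors and factors they were 0.43 for ERN1, 0.39 for EIF2AK3, 0.34 for ATF6 and -0.91 for XBP1. Among ATF4 targets they were 1.05 for SESN2, 1.03 for CHAC1, 0.63 for DDIT3, 0.53 for TRIB3, 0.38 for PPP1R15A, 0.38 for PHGDH and 0.29 for PSAT1. XBP1 stands apart as the 1 gene lower in BT474-Var4. The adjusted p-values ran from 0.00133 for HSPA5 and XBP1 to 0.036 for HERPUD1.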

How the results depend on the processing

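No called change of the 32 genes turned its sign under any of the 16 alternatives. Without the filter on dim probes, which adds dim probes to the adjustment, 9 genes were called in BT474-Var1 (1 higher, 8 lower), 4 in BT474-Var4 (3 higher, 1 lower) and 14 between the variants (13 higher). With normexp background correction, 4 were higher in BT474-Var1 and 18 were called in BT474-Var4 (15 higher). With trended, robust variances, 5 were higher in BT474-Var1, 20 called in BT474-Var4 (16 higher) and 2 lower between the variants. The one-way analysis of variance gave 4 higher in BT474-Var1 and 2 lower between the variants, and quantile normalization gave 5 and 2. The former lost HYOU1 and SESN2 in BT474-Var1 and DNAJC3 between the variants, and the latter lost CALR in BT474-Var1, ASNS in BT474-Var4 and DNAJC3 and HERPUD1 between the variants. The causes of these moves were not tested. With the replicate block, 16, 9 and 22 genes were called in place of 17, 10 and 24, losing CALR in BT474-Var1, ASNS in BT474-Var4 and DNAJC3 and HERPUD1 between the variants.

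Arm medians moved as follows. In BT474-Var1 the chaperone arm was at -0.26 with normexp and -0.31 with quantile normalization, the ATF4 targets at -0.23 with normexp, and the sensors at 0.0356 with quantile normalization and 0.0813 with the mean of a gene's probes. In BT474-Var4 the sensors were at 0.24 with normexp, and the chaperone arm and ATF4 targets at 0.20 and 0.11 with quantile normalization. Between the variants quantile normalization gave 0.49, 0.24 and 0.31 for chaperones, sensors and ATF4 targets, and the mean of probes gave 0.29 for sensors. No scaling moved the median of all genes by 0.1.

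Without 1 array, the calls in BT474-Var1 numbered 11 to 15 (1 to 2 higher) and those in BT474-Var4 4 to 10 (3 to 8 higher, 1 to 2 lower). The medians then ran in BT474-Var1 from -0.45 to -0.32 for chaperones, -0.067 to 0.0088 for sensors and -0.42 to -0.26 for ATF4 targets, and in BT474-Var4 from 0.21 to 0.32 for sensors. The lone array left in a group was assumed to vary like the other groups. With the mean of a gene's probes the ERN1 difference between the variants lost its call (adjusted p = 0.132).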
